A study of Mus musculus with 25 samples.

Results

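The expression of 8 phagocytic receptor, ligand and scavenger receptor genes was followed in FACS-sorted microglia from 3 month-old mice. The mice were WT or carried a heterozygous or homozygous deletion of Bin1 in forebrain excitatory neurons (Bin1-cKO). The genes were chosen by name, with earlier results of these data known. They are Mertk, Gas6, Pros1, Itgb5, Lrp1, Stab1, Msr1 and Cd36. They make up 8 of the 43411 genes in the deposited table, and all 8 were among the 12908 genes with enough counts to be tested. Lrp1 was lower in homozygous Bin1-cKO microglia than in WT and in heterozygous Bin1-cKO microglia, and of the 8 genes it alone passed the thresholds on adjusted p and on fold change together. Itgb5, Gas6 and Pros1 fell by less in both comparisons, and Mertk fell against heterozygous mice but missed the threshold against WT. Stab1, Msr1 and Cd36 did not pass the test in any comparison.

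Counts of sequenced microglia were given for 23 mice, 1 library per mouse. The 6 WT littermates (2 females, 4 males) carried Bin1flox/wt without the Thy1-Cre transgene, the 7 heterozygous Bin1-cKO mice (4 females, 3 males) carried Bin1flox/wt with it, and the 10 homozygous Bin1-cKO mice (5 females, 5 males) carried Bin1flox/flox with it. Every mouse, WT included, therefore had at least 1 floxed allele. The strains purchased for the cross were B6.129S6-Bin1tm2Gcp/J and FVB/N-Tg(Thy1-cre)1Vln/J. The study names a C57BL/6 background for Bin1flox/flox Thy1-Cre mice in an activity test, and does not state the background of the sequenced mice. The Thy1 promoter drives Cre in neurons, here the excitatory neurons of the forebrain, so microglia were not the intended target of the deletion. Heterozygous and homozygous mice both carried the transgene, whereas WT and homozygous mice differed in the transgene as well as in the floxed allele. All WT and heterozygous mice had animal numbers in the 02xx range, while 6 homozygous mice had 03xx and 4 had 04xx numbers. Genotype and number range therefore cannot be told apart, and the labels do not say what a range stands for. Of 25 labelled samples, 2 had no column in the table and were not analysed here. They were a WT female and a heterozygous male. The study states that it removed a sample from each of these groups for poor sequencing quality, both also outliers in its principal component analysis.

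Microglia clear dying cells, debris and synaptic material. A dying cell exposes phosphatidylserine, which phagocytes recognize directly or through a soluble bridging protein. Mertk is a receptor tyrosine kinase of the TAM family (Tyro3, Axl and Mertk), and Gas6 and protein S, the product of Pros1, bridge these receptors to phosphatidylserine. Itgb5 encodes the beta5 integrin chain, which pairs with the alphaV chain and binds the bridging protein Mfge8. Lrp1 is a large endocytic receptor of the LDL receptor family that takes up apolipoprotein E, protease complexes and apoptotic cells. Stab1 encodes stabilin-1, Msr1 scavenger receptor A and Cd36 a class B scavenger receptor, all of which bind modified lipoproteins among other ligands.

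Total counts were 10812877 to 16734740 per mouse, with a median of 13477880, and 15865 to 17432 genes had a count. All 10 microglia markers checked were detected, and their summed level was 63868 to 90870 CPM (counts scaled to a library total of 1000000) in WT, 58608 to 79104 in heterozygous and 52566 to 62190 in homozygous mice. Border macrophage markers summed to 7.19 to 71.7 CPM over the 23 mice, and 9 of the 10 had enough counts to be tested. Among them Cd163 was at 0.220 to 6.15 CPM in WT mice, whereas Mrc1 was at 0 in every mouse. What the 0 of Mrc1 stands for was not tested. The homozygous mice F1, F2, M1 and M2 stood apart by the immediate-early gene Fos, at 824 to 1459 CPM against at most 6.999 CPM in every other mouse. Bin1 itself was measured in the sorted cells at 600 to 814 CPM in WT, 629 to 747 in heterozygous and 327.6 to 673 in homozygous mice. It was lower in homozygous than in WT mice (log2 fold change -0.60 ± 0.12 SE, adjusted p = 0.00173 by edgeR's quasi-likelihood test). Homozygous against heterozygous mice it was at -0.53 ± 0.11 (adjusted p = 0.00154), and heterozygous against WT mice at -0.07 ± 0.13 (adjusted p = 0.936, edgeR). The cause of the lower Bin1 in these cells was not tested. In bulk RNA, fewer cells of a type and less RNA per cell cannot be told apart.

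The stretches upstream of 4 genes are shown because these genes (Lrp1, Itgb5, Gas6 and Pros1) fell by adjusted p in homozygous mice against both other genotypes. Each is the 250 bases before the start of the gene in RefSeq (GRCm38.p6), written 5′ to 3′ on the strand of the gene, with every match to the GC box GGGCGG on either strand in capitals. RefSeq sequences were matched for 7 of the 8 genes, all but Msr1. The bases just after the start were found in a known transcript for Lrp1, Itgb5, Pros1 and Stab1, but not for Gas6, Mertk or Cd36. The Cd36 stretch (chr5:17835897-17836146) lies within the coordinates of the Cd36 gene. For Gas6 the RefSeq start, next to base 13494536, lies outside the gene coordinates given below, which end at 13494490.
Lrp1, chr10:127621149-127621398, minus strand: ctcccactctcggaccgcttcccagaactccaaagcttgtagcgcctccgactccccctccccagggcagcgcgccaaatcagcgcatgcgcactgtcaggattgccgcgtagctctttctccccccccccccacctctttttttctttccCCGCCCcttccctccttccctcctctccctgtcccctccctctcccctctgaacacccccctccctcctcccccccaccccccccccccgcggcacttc
Itgb5, chr16:33829415-33829664, plus strand: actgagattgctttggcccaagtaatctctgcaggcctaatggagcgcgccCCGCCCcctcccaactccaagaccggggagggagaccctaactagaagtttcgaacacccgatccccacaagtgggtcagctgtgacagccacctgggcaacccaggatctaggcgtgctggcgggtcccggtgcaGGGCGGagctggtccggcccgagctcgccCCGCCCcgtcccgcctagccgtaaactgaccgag
Gas6, chr8:13494536-13494785, minus strand: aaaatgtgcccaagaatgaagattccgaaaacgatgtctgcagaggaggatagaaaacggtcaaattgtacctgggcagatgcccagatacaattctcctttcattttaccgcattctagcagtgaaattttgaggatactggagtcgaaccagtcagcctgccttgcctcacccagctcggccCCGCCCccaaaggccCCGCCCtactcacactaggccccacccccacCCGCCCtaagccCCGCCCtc
Pros1, chr16:62854057-62854306, plus strand: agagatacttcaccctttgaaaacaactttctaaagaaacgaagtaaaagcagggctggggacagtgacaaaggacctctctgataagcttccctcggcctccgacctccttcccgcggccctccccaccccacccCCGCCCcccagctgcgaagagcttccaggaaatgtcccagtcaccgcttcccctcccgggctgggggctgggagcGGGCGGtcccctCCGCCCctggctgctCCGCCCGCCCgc
The GC box, the binding sequence of Sp1-like factors, was found in 6 of the 7 stretches and in 32.7% of 32851 RefSeq promoters of the same length. It occurred once in Lrp1, 3 times in Itgb5, 4 times in Gas6 and, with overlapping matches, 5 times in Pros1. The 7 stretches held 43.2% (Cd36) to 67.2% (Lrp1) G and C, against a median of 52.4% over all promoters. The PU.1 core GAGGAA, read by the lineage factor of macrophages and microglia, was found only in Stab1 and in 23.3% of all promoters. The AP-1 sequence TGANTCA (6.75% of all promoters), the E-box CACGTG (6.02%) and the TATA box TATAAA (12.4%) were found in none of the 7. The 5 motifs were chosen with the expression values known, and a match describes the letters only.

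Compared per exon length, as CPM per kilobase (FPKM), the 8 genes differed widely in level. Itgb5 was the highest, with a WT mean of 1144 FPKM, rank 30 of the 12843 tested genes with a known length. Pros1 (240 FPKM, rank 153) and Mertk (202 FPKM, rank 193) followed, then Gas6 (123 FPKM, rank 326). Lrp1 (42.1 FPKM) and Stab1 (31.5 FPKM) stood lower, and Msr1 and Cd36, at 0.403 and 0.400 FPKM, were close to the limit of detection. Itgb5 was above Pros1 in 23 of 23 mice, Mertk above Gas6 in 23, Gas6 above Lrp1 in 23 and Stab1 above Msr1 in 23. Pros1 was above Mertk in 18 of 23 mice, and their ranges overlapped, as did those of Msr1 and Cd36, where Msr1 was the higher in 10 mice. The order of Lrp1 and Stab1 differed with genotype. Lrp1 was the higher in 6 of 6 WT and 7 of 7 heterozygous mice, but in 2 of 10 homozygous mice.

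**Figure D1:**
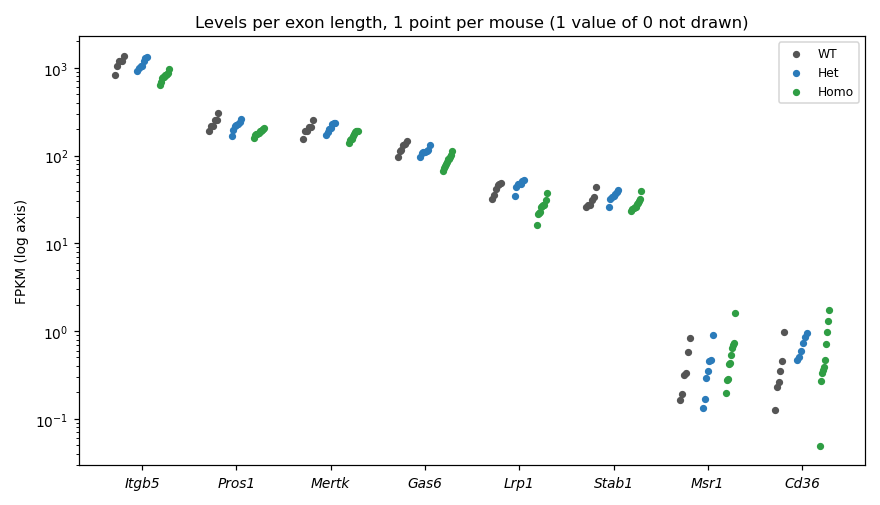
Levels per exon length of the 8 genes in FPKM (CPM per kilobase of exon, log axis), 1 point per mouse, coloured by genotype (WT, heterozygous, homozygous). Genes are ordered by WT mean, from Itgb5 at 1144 FPKM to Cd36 at 0.400, and the value of 0 for Cd36 in 1 heterozygous mouse is not drawn.

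To determine which of these genes differed in microglia after neuronal Bin1 loss, the 3 genotypes were compared in one fit with sex as a covariate. Levels below are CPM scaled by TMM-normalized library totals and are given for each gene as the lowest, median and highest mouse of a group. Genes past both an adjusted p of 0.05 and a 1.5-fold change are called differentially expressed genes (DEGs). Between homozygous and WT mice 3.4% of the 12908 genes were DEGs, 1.75% lower in homozygous mice, and 7.09% were lower and 5.66% higher by adjusted p alone. Of the 8 genes, 1 was a DEG and 4 were lower by adjusted p. Their median log2 fold change was -0.32, against 0.012 over all genes tested.

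**Figure D2:**
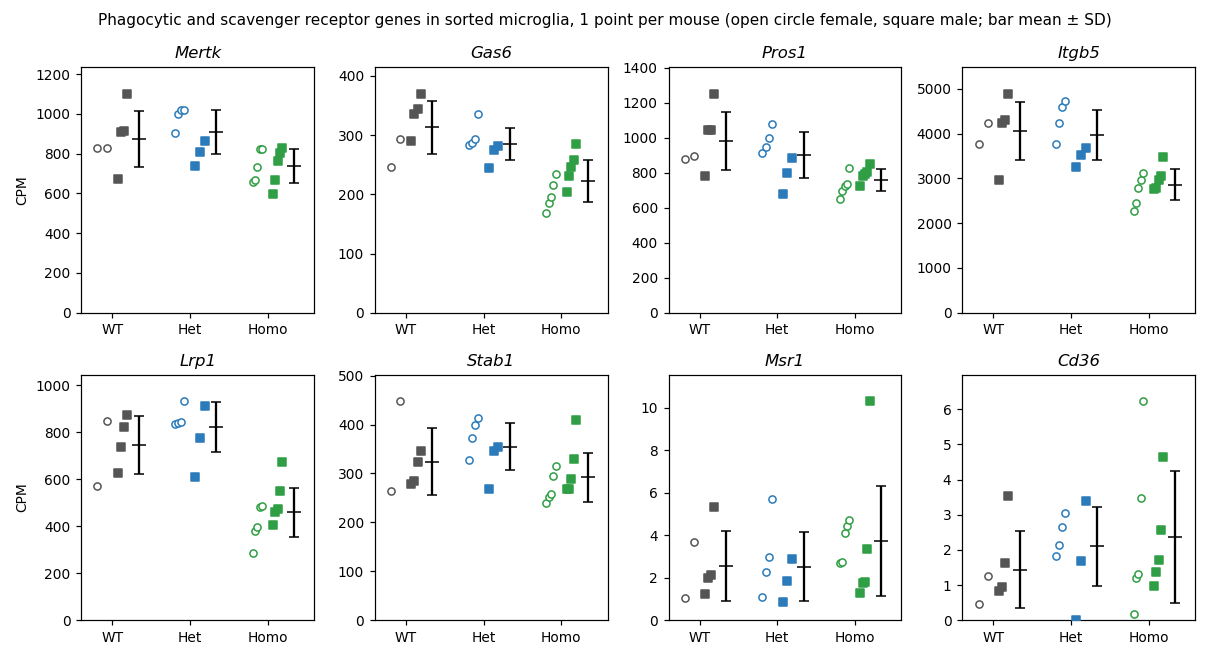
CPM of each of the 8 genes in every mouse, by genotype (x axis) with females as open circles and males as squares, and the group mean ± SD as a bar beside the points. For Lrp1, 9 of 10 homozygous mice lie below every WT and heterozygous mouse, while for Msr1 and Cd36 the groups overlap throughout.

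The receptor Mertk (chr2:128698956-128802894) was measured at 675, 869 and 1102 CPM in WT, at 737, 903 and 1020 CPM in heterozygous and at 598, 748 and 831 CPM in homozygous mice. The groups overlapped, and 4 of 10 homozygous mice were below every WT mouse. The mean was 876 ± 140 CPM (SD, n = 6) in WT and 737 ± 84.4 (n = 10) in homozygous mice, a log2 fold change of -0.26 ± 0.093 (SE) that missed the threshold (adjusted p = 0.0669, edgeR's quasi-likelihood test). Its 95% interval was -0.45 to -0.07. By DESeq2 the same comparison passed, with an adjusted p of 0.0412. It passed in 2 of 11 alternative fits, DESeq2 among them, and in 2 of 23 with a mouse left out.

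Gas6 (chr8:13465374-13494490), the ligand that activates all TAM receptors, was at 247, 315 and 370 CPM in WT, 244, 283 and 335 CPM in heterozygous and 169, 223 and 286 CPM in homozygous mice. Of the homozygous mice, 8 were below every WT mouse and 7 below every WT and heterozygous mouse. Gas6 fell by 27.7% against WT (log2 fold change -0.47 ± 0.093, adjusted p = 0.0020, edgeR's quasi-likelihood test), under the fold-change threshold. Its exons share 34 bases with Tmem255b on the opposite strand, which the unstranded libraries cannot assign.

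Pros1 (chr16:62854307-62929346), which encodes protein S, the vitamin K-dependent anticoagulant and TAM ligand, was at 779, 969 and 1250 CPM in WT. It was at 678, 911 and 1081 CPM in heterozygous and 647, 757 and 848 CPM in homozygous mice. Homozygous values were the least spread of the 3 groups, and 5 of 10 were below every WT mouse, but 1 was below every heterozygous mouse. Pros1 fell by 22.9% against WT (log2 fold change -0.37 ± 0.094, adjusted p = 0.0106, edgeR). Without WT M1, the highest WT mouse, the adjusted p was 0.0506, and without the 4 homozygous mice with high Fos it was 0.058.

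Itgb5 (chr16:33829665-33949338), the most abundant of the 8, was at 2960, 4241 and 4890 CPM in WT, 3249, 3771 and 4722 CPM in heterozygous and 2263, 2873 and 3479 CPM in homozygous mice. Of the 10 homozygous mice, 7 were below every WT mouse and 9 below every heterozygous mouse. WT M2, at 2960 CPM, was the only WT mouse within the homozygous range. The mean was 4066 ± 651 CPM (SD, n = 6) in WT and 2860 ± 342.4 (n = 10) in homozygous mice, and Itgb5 fell by 29.8% (log2 fold change -0.51 ± 0.098, adjusted p = 0.0015, edgeR), under the fold-change threshold.

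Lrp1 (chr10:127538161-127621148, 17717 bases of exon) was at 569, 780 and 873 CPM in WT, 611, 838 and 932 CPM in heterozygous and 285, 465 and 672 CPM in homozygous mice. All homozygous mice but M4, at 672 CPM, were below every WT and every heterozygous mouse, and F1 was the lowest at 285 CPM. These values rested on 3787 to 13556 counts per mouse, so counting error was small beside the spread between mice. The mean was 746 ± 125 CPM (SD, n = 6) in WT, 820 ± 106 (n = 7) in heterozygous and 458 ± 105 (n = 10) in homozygous mice. Lrp1 fell by 37.8% against WT (log2 fold change -0.69 ± 0.13, 95% interval -0.95 to -0.42, adjusted p = 0.0012, edgeR), rank 161 of all genes tested by p. It was a DEG with each of the 23 mice left out in turn (log2 fold change -0.77 to -0.62). With the 4 homozygous mice of high Fos left out, the difference was -0.55 (adjusted p = 0.0099), past the threshold on p but not on fold change. Among the 1023 tested genes with more than 10 kilobases of exon, the median log2 fold change was -0.04 and 3.13% were as low as Lrp1.

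The scavenger receptors showed no difference past the threshold. Stab1 (chr14:31139013-31168641) was at 264, 304 and 448 CPM in WT, 269, 354 and 414 CPM in heterozygous and 240, 278 and 409 CPM in homozygous mice, and all 3 groups overlapped. The log2 fold change against WT was -0.15 ± 0.12 (95% interval -0.39 to 0.09, adjusted p = 0.435, edgeR). Stab1 shares 112 bases of exon with Nt5dc2 on the opposite strand.

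Msr1 (chr8:39581685-39642673) and Cd36 (chr5:17781690-17888801) were near the lower limit of the assay. Msr1 was at 1.03, 2.06 and 5.32 CPM in WT, 0.852, 2.25 and 5.71 CPM in heterozygous and 1.26, 3.05 and 10.3 CPM in homozygous mice, on 10 to 141 counts. Cd36 was at 0.451, 1.097 and 3.52 CPM in WT, 0, 2.13 and 3.38 CPM in heterozygous and 0.177, 1.54 and 6.23 CPM in homozygous mice, on 0 to 89 counts. For both genes the lowest and the highest homozygous mouse spanned the range of the WT mice or nearly so. The heterozygous male M1 had no Cd36 count, which allows up to 0.256 CPM by counting error. The log2 fold changes against WT were 0.50 ± 0.45 for Msr1 (95% interval -0.42 to 1.43, adjusted p = 0.515) and 0.71 ± 0.61 for Cd36 (-0.54 to 1.97, adjusted p = 0.493, edgeR). For both genes, changes in either direction within these intervals could not be told from no change.

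**Figure D3:**
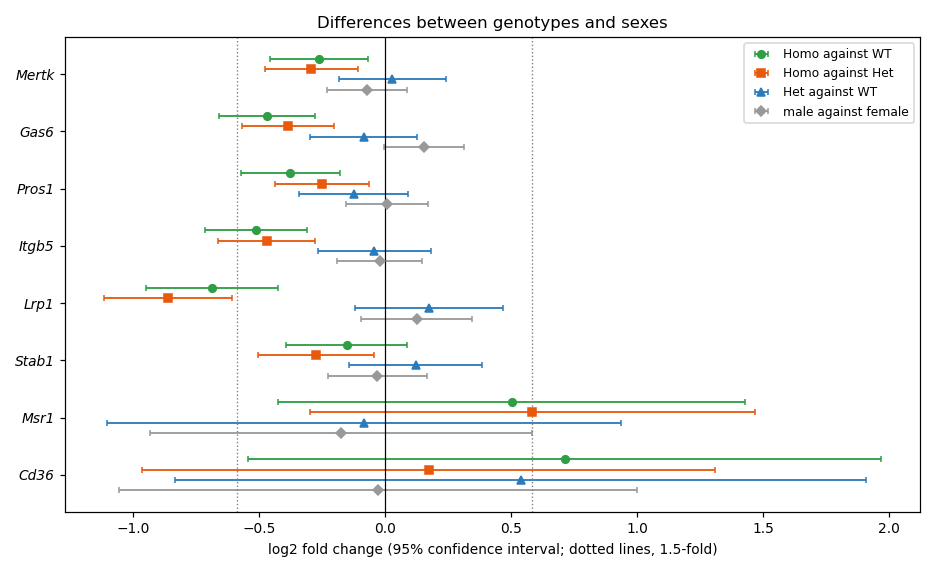
Log2 fold changes of the 8 genes (x axis) with 95% confidence intervals, for homozygous against WT, homozygous against heterozygous, heterozygous against WT and male against female mice. Dotted lines mark 1.5-fold. Lrp1, at -0.69 and -0.86, lies past them with adjusted p below 0.05, while the intervals of Msr1 and Cd36, whose estimates also reach these lines, are the widest and include 0.

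Homozygous and heterozygous mice, which both carried Thy1-Cre, differed at 6.62% of all genes (4.3% lower in homozygous mice, 11.7% lower by adjusted p alone). Of the 8 genes, 1 was again a DEG and 5 were lower by adjusted p, with a median log2 fold change of -0.28 against -0.003 over all genes. The same homozygous mice enter this comparison and the one with WT mice. Lrp1 fell by 44.9% (log2 fold change -0.86 ± 0.12, 95% interval -1.11 to -0.61, adjusted p = 5.88e-05, edgeR) and was rank 54 of all genes by p. Itgb5 fell by 27.8% (-0.47 ± 0.094, adjusted p = 0.0011), Gas6 by 23.4% (-0.38 ± 0.089, adjusted p = 0.0034) and Mertk by 18.3% (-0.29 ± 0.089, adjusted p = 0.0200). The adjusted p of Mertk was above 0.05 without the heterozygous female F4 (0.0540) and with the 03xx homozygous mice alone (0.0810). Pros1 was lower by 15.9% with an adjusted p of 0.0470, which rose above 0.05 in 7 of 11 alternative fits and in 17 of 23 with a mouse left out. Stab1 was at -0.27 ± 0.11 (adjusted p = 0.0766), Msr1 at 0.59 ± 0.43 and Cd36 at 0.17 ± 0.55. Genes with more than 10 kilobases of exon had a median log2 fold change of -0.16 here, and 4.11% of them were as low as Lrp1.

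Loss of 1 copy was compared through heterozygous and WT mice, which shared the 02xx numbers. Both groups were Bin1flox/wt and differed in Thy1-Cre, so loss of 1 copy and the transgene itself cannot be told apart. No gene of the 12908 was a DEG (0%), and the smallest adjusted p was 0.425. At an unadjusted p of 0.05, 998 genes passed, and limma-voom and DESeq2 also called 0 genes. For the 8 genes the log2 fold changes were -0.12 for Pros1, -0.08 for Gas6 and Msr1, -0.04 for Itgb5, 0.03 for Mertk, 0.12 for Stab1, 0.17 for Lrp1 and 0.54 for Cd36, and the smallest adjusted p was 0.808. The 95% interval for Lrp1 was -0.12 to 0.47 and that for Itgb5 -0.26 to 0.18, and those for Msr1 (-1.10 to 0.94) and Cd36 (-0.83 to 1.91) were wide.

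Sex was the other labelled factor. Males and females differed at 9 genes of all tested (0.0697%), none of them among the 8, whose log2 differences (male minus female) were -0.18 for Msr1 to 0.16 for Gas6 with adjusted p of at least 0.847. The difference between homozygous and WT mice was then tested for a dependence on sex, where 0 of all genes were called (0%), 644 had an unadjusted p below 0.05 and DESeq2 called 1. Within females Lrp1 was at 707 ± 196 CPM (SD, n = 2) in WT and 406 ± 82.9 (n = 5) in homozygous mice, and within males at 765 ± 108 (n = 4) and 511 ± 104 (n = 5). The log2 fold changes of Lrp1 were -0.80 in females (adjusted p = 0.0632) and -0.58 in males (adjusted p = 0.0314, edgeR), and their difference was 0.22 ± 0.25. Itgb5 was at -0.56 in females and -0.45 in males, Gas6 at -0.43 and -0.45, and Pros1 at -0.29 and -0.38. In males the adjusted p was 0.0211 for Itgb5, 0.0120 for Gas6 and 0.0293 for Pros1, and in females, with 2 WT mice, it was 0.0725, 0.125 and 0.282. Of the 8 genes, the sex dependence with the smallest p was that of Stab1, at -0.39 in females and 0.02 in males (difference 0.41 ± 0.23, unadjusted p = 0.0851, adjusted p = 0.992).

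Since the animal-number ranges of the homozygous mice differed from those of all others, values were compared between the ranges. Lrp1 was at 414 ± 89.3 CPM (SD, n = 6) in the 03xx and 525 ± 98.9 (n = 4) in the 04xx homozygous mice, against 746 ± 125 in WT. With the 03xx mice alone the log2 fold change against WT was -0.84, and with the 04xx mice alone it was -0.50 (adjusted p = 0.0335, edgeR), under the fold-change threshold. Itgb5 was at 2782 ± 423 and 2977 ± 150 CPM, Gas6 at 228 ± 43.0 and 213 ± 23.1, Pros1 at 736 ± 56.9 and 787 ± 67.1 and Mertk at 758 ± 77.3 and 706 ± 96.0 in the 2 ranges. The 03xx mean was the lower for Lrp1, Itgb5 and Pros1 and the higher for Gas6 and Mertk. For Pros1, the adjusted p with the 04xx mice alone was 0.141. All 4 mice with high Fos were of the 03xx range.

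**Figure D4:**
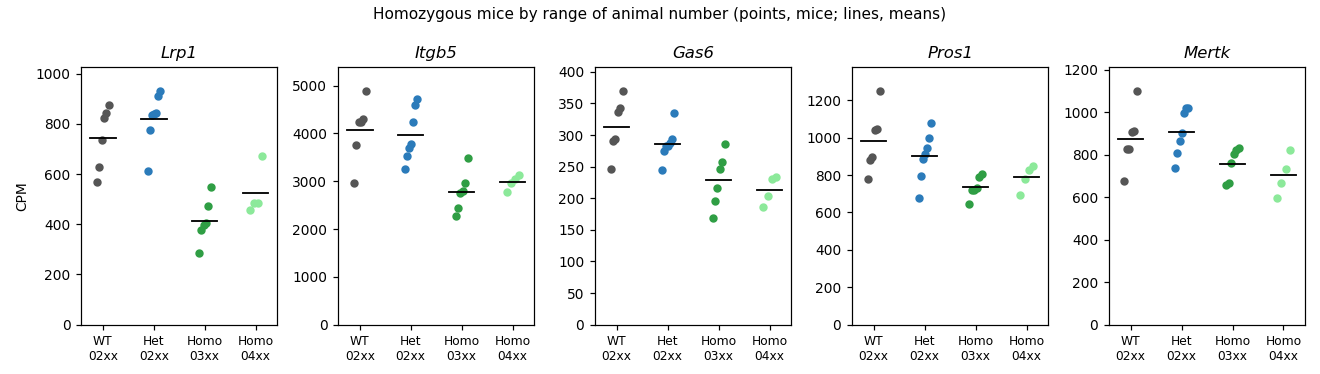
CPM of Lrp1, Itgb5, Gas6, Pros1 and Mertk (y axis, from 0) in WT and heterozygous mice, all of 02xx numbers, and in homozygous mice of 03xx and 04xx numbers. Points are mice and lines are means, and for Lrp1 the means are 746 CPM in WT, 414 in 03xx and 525 in 04xx mice.

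The other genes of these pathways were read from lists of related genes, whose counts by adjusted p stand beside the 7.09% lower and 5.66% higher among all genes tested. Of the 5 TAM receptors and ligands 4 were tested, and 2 were lower (Gas6 and Pros1) and 1 higher by adjusted p in homozygous against WT mice. The higher gene was Axl, the TAM receptor induced in activated phagocytes, at 9.93 to 19.3 CPM in WT and 13.4 to 30.6 CPM in homozygous mice, where 9 of 10 were above every WT mouse. Axl rose by a log2 fold change of 0.75 ± 0.18 against WT (adjusted p = 0.0075) and by 0.74 against heterozygous mice (adjusted p = 0.0034, edgeR). Tyro3, at a mean of at most 0.161 CPM in any group, was not tested.

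Of 20 phosphatidylserine receptors and bridging proteins 16 were tested, 6 were lower and 1 higher by adjusted p, and their median log2 fold change was -0.23. The lower genes were Itgb5, its beta-chain relative Itgb3 (-0.55, adjusted p = 0.0061), Trem2, the lipid-sensing receptor of microglia (-0.48, adjusted p = 0.0010), the bridging protein Mfge8 (-0.46, adjusted p = 0.0232), C1qa, which encodes the A chain of complement C1q (-0.28, adjusted p = 0.0033), and the inhibitory receptor Cd300a (-0.24, adjusted p = 0.0191, edgeR). The genes of the other C1q chains, C1qb (-0.019, adjusted p = 0.911) and C1qc (-0.0083, adjusted p = 0.963), did not pass. Trem2 was below every WT mouse in 10 of 10 homozygous mice. The partner chain of Itgb5, Itgav, was at -0.26 ± 0.12 (adjusted p = 0.157). Cd300lf, another receptor of this list, was at 95.1 to 120.5 CPM in WT and 90.1 to 118.9 CPM in heterozygous mice. Its homozygous median was 3.43 CPM, with 7 of 10 mice below every WT and heterozygous mouse and 3 above every heterozygous mouse. Its log2 fold change against WT was -1.64 ± 0.76 (adjusted p = 0.162, edgeR), and the cause of this split was not tested. The higher gene was Anxa5, which encodes the phosphatidylserine-binding annexin A5, at 15.9 to 21.996 CPM in WT and 21.8 to 49.6 CPM in homozygous mice (log2 fold change 0.70 ± 0.17, adjusted p = 0.0076, edgeR).

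Among 20 scavenger receptors 13 were tested, with a median log2 fold change of 0.010, 1 lower and 1 higher by adjusted p and 0 DEGs. Scarb2, the lysosomal receptor that carries glucocerebrosidase, was at -0.30 (adjusted p = 0.0091), and Cxcl16, a membrane chemokine that binds oxidized lipoprotein, at 0.53 ± 0.10 (adjusted p = 0.0013, edgeR). Cxcl16 was above every WT mouse in 10 of 10 homozygous mice.

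Of the 15 genes of the LDL receptor family and its chaperone 10 were tested, with a median log2 fold change of -0.28, 3 lower and 0 higher. Besides Lrp1 these were Lrp10 (-0.47 ± 0.097, adjusted p = 0.0024) and Lrpap1, which encodes the receptor-associated protein that escorts Lrp1 through the secretory pathway (-0.31 ± 0.064, adjusted p = 0.0024, edgeR). Of 13 adaptors and sheddases of the Lrp1 tail and ectodomain 11 were tested, 1 was lower and 2 were higher. The endocytic adaptor Dab2 was at 11.1 to 19.9 CPM in WT and 19.9 to 41.6 CPM in homozygous mice, 10 of 10 of them above every WT mouse, and rose (log2 fold change 0.89 ± 0.17, adjusted p = 0.0014). The lower gene was the amyloid precursor-binding adaptor Apbb2, at -0.28 (adjusted p = 0.0476, edgeR). The sheddases Adam10, Adam17 and Mmp14 were at -0.29, -0.23 and -0.38 and did not pass the test.

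Of 12 integrins of phagocytes 10 were tested, 5 were lower and 0 higher, with a median of -0.28. Itgam, the CD11b chain by which the cells were sorted, was at 1359 to 2473 CPM in WT and 1060 to 1484 CPM in homozygous mice and was a DEG (-0.61 ± 0.11, adjusted p = 0.0008, edgeR). Itgb1 (-0.39, adjusted p = 0.0083) and Itgb2 (-0.31, adjusted p = 0.0388) were the others beside Itgb3 and Itgb5. Of 19 genes of engulfment signaling 15 were tested, 1 was lower (Vav1, -0.25) and 1 higher by adjusted p, and none was a DEG. The higher was Ucp2, a mitochondrial carrier used by engulfing phagocytes, at 320 ± 39.1 CPM (SD, n = 6) in WT and 462 ± 54.4 (n = 10) in homozygous mice (0.52 ± 0.081, adjusted p = 0.0003, edgeR). Of 9 nuclear receptors and related factors 7 were tested, with 0 lower and 1 higher by adjusted p, 0 DEGs and a median of 0.13.

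**Figure D5:**
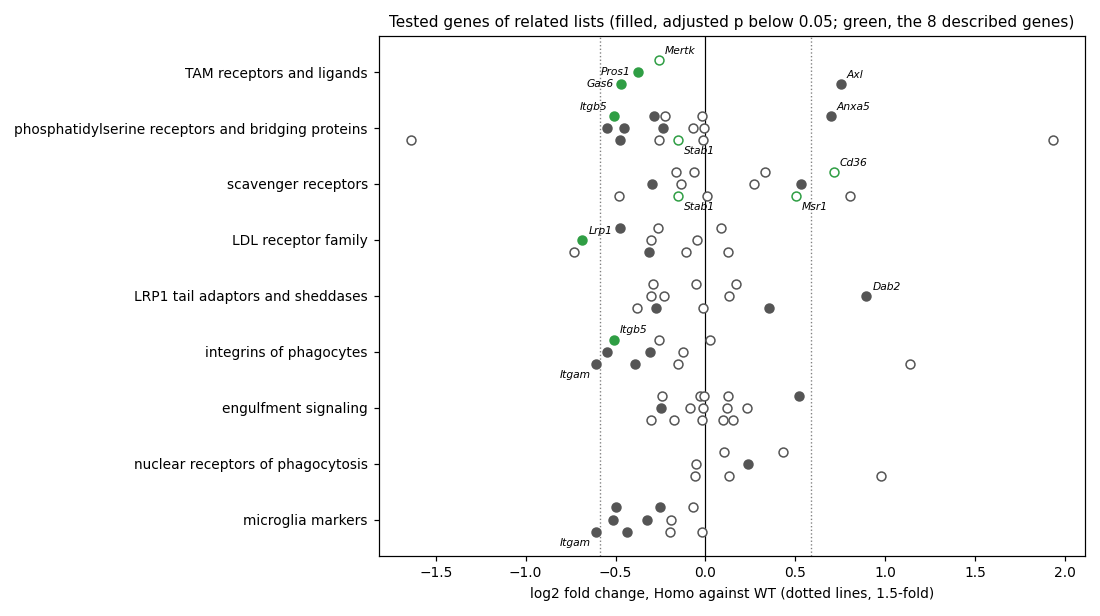
Log2 fold change in homozygous against WT mice (x axis) of each tested gene of 9 lists (rows), filled where the adjusted p was below 0.05 and green for the 8 genes described. Dotted lines mark 1.5-fold, and DEGs and the 8 genes are named, with Lrp1 at -0.69 and Itgam at -0.61 on the lower side and Axl, Anxa5 and Dab2 at 0.70 to 0.89 on the higher side.

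Markers of microglia and of other cells were read beside these values. Of the 10 microglia markers all 10 had a log2 fold change below 0 in homozygous against WT mice, 6 of them lower by adjusted p (among them P2ry12, Tmem119, Cx3cr1, Csf1r and Itgam), with a median of -0.29, beside -0.32 for the 8 genes. Their part in the lower values of Itgb5, Gas6, Pros1 and Lrp1 was not tested. Monocyte markers summed to 7.65 to 14.9 CPM in WT and 10.4 to 31.6 in homozygous mice, where 1 of 6 tested, Ccr2, was a DEG (1.28), and Ly6c2 was at a mean of at most 0.222 CPM. Neutrophil markers summed to 0 to 42.5 CPM in WT and 0 to 95.3 in homozygous mice with 0 of 5 DEGs. Neuron markers summed to 6.38 to 33.1 CPM in WT and 2.46 to 6.41 in homozygous mice, with 3 of 5 tested DEGs, all lower. Endothelial markers summed to 37.7 to 71.1 and 27.3 to 53.4 CPM, with 0 of 2 tested DEGs but 1 of 2 lower by adjusted p. Cldn5 and Tek were at 0 in all mice, so the sum came from other markers of this list. Mural cell markers summed to 6.03 to 13.9 and 0.452 to 11.4 CPM (1 of 2 DEGs). Astrocyte markers summed to 235 to 270 and 231 to 311 CPM (1 of 5 DEGs) and oligodendrocyte markers to 179 to 253 and 153 to 209 CPM (1 of 5 DEGs). Immediate-early genes summed to 444 to 611 CPM in WT and 586 to 13054 in homozygous mice, with 9 of 10 DEGs.

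The genes whose level followed that of Lrp1 most closely over the 23 mice were Plbd2, a lysosomal phospholipase-like protein (Pearson r = 0.92, Spearman rho = 0.87), Dync1h1, the heavy chain of cytoplasmic dynein (0.92 and 0.91), and Npc1, the cholesterol exporter of late endosomes (0.90 and 0.90). The 23 mice differ in genotype, sex and depth, with which many genes vary together, and after genotype and sex were taken out r was 0.73, 0.77 and 0.68. These values describe likeness across these libraries only.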

How the data were processed

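RNA from CD11b+ CD45med microglia sorted from single mice was made into unstranded libraries (SMARTer v4 and Nextera XT) and read as single-end 50 base reads. The authors aligned them with OmicSoft OSA4 (mm10, Ensembl R84), and the deposited values are RSEM expected counts per gene, not normalized for depth or length. The strand setting of the counting and the handling of reads shared between genes are not given in the sources used here.

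Expected counts were rounded. Symbols and GRCm38 coordinates (the build called mm10) were found for 42929 of 43411 gene identifiers. Genes were kept by filterByExpr with genotype as the group (12908), normalized by TMM and tested with edgeR's quasi-likelihood test (edgeR 4.0.16, R 4.3.3), genotype and sex in one fit of all 23 mice, with Benjamini-Hochberg adjustment over all genes tested. The thresholds for a DEG, those of the study, were 0.05 on adjusted p and 1.5 on fold change. Effects within a sex used a fit of the genotype and sex cells. The SE of a log2 fold change is its size over the square root of the F statistic, and likeness used log2 CPM with a prior count of 2. Replicates were separate mice. Total counts of 10812877 to 16734740 limit the precision of genes near 1 CPM, and the floor of 3 counts covers counting error only.

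The 8 genes, the lists and the motifs were chosen with earlier results of these data known. Named beside the 8 genes were the DEGs of each list of related genes, or the member of smallest p where a list had none, and the 3 genes most like Lrp1. A few list members are not reported by name here. List members past the threshold on adjusted p alone, the sheddases, Itgav, C1qb, C1qc, Tyro3, Cd300lf and Cd163 were added after their values were seen. Alternatives were DESeq2 1.42.0, limma-voom (limma 3.58.1), RLE size factors, library totals alone, no filter or a filter at 10 CPM in 6 mice, no sex term, the 2 genotypes alone, homozygous mice of either number range alone, the 4 homozygous mice of high immediate-early genes left out, each mouse left out in turn, and no fold-change threshold. The tests were tested on simulated data. Promoters were RefSeq sequences (GRCm38.p6), searched on both strands. Plots were made in Python 3.11.15 (matplotlib 3.10.9).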

Additional observations from a re-analysis of the deposited data

Results flagged for a closer look

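In 24 groups of mice (8 genes in 3 genotypes), the highest or lowest mouse was compared with the rest by Dixon's criterion, by which chance alone sets apart about 1 group in 20. It set apart 2, both by the homozygous male M4 as the highest of 10. Msr1 was at 10.3 CPM in this mouse, and the next mouse was at 4.69 CPM (gap over range 0.62, critical value 0.466). Without it the log2 fold change of Msr1 against WT was 0.014 in place of 0.50, and against heterozygous mice 0.24 in place of 0.59, with an adjusted p above 0.05 with or without it. Stab1 was at 409 CPM in the same mouse, and the next was at 328.8 CPM (gap over range 0.47, critical value 0.466). Without it the log2 fold change of Stab1 was -0.23 against WT (adjusted p = 0.155) and -0.34 against heterozygous mice, where the adjusted p by edgeR's quasi-likelihood test was 0.0168 in place of 0.0766. The same mouse was also the highest homozygous mouse for Lrp1, at 672 CPM.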

How the results depend on the processing

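Lrp1 was the only one of the 8 genes called in homozygous against WT mice. The count was 0 with library totals alone (Lrp1 at -0.58), with the 04xx homozygous mice alone and with the 4 mice of high immediate-early genes left out, and 4 with no fold-change threshold. Against heterozygous mice Lrp1 was the 1 gene called in each alternative except that with no fold-change threshold, which called 5. Leaving out each mouse gave 1 call in both comparisons. Of all genes, homozygous against WT mice gave 439 calls, 220 with the filter at 10 CPM and 1645 with no fold-change threshold. Homozygous against heterozygous mice gave 854 calls, 350 with the filter at 10 CPM, 542 with the 04xx mice alone, 505 with the 4 mice left out and 2936 with no fold-change threshold. The sex dependence gave 0 calls, 1 by DESeq2, 1 with no filter and 7 without homozygous F5. The smaller counts at 10 CPM include fewer genes tested, and for the others the cause was not tested.

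Log2 differences with an adjusted p above 0.05 changed sign when single mice were left out. In heterozygous against WT mice they were -0.027 to 0.11 for Mertk, -0.38 to 0.27 for Msr1 and -0.11 to 0.016 for Itgb5, and for Cd36 in homozygous against heterozygous mice -0.20 to 0.38. In males against females they were -0.022 to 0.057 for Pros1, -0.056 to 0.013 for Itgb5, -0.090 to 0.057 for Stab1 and -0.23 to 0.29 for Cd36. For the sex dependence they were -0.16 to 0.090 for Gas6, -0.20 to 0.013 for Pros1, -1.40 to 0.44 for Msr1, -0.11 to 0.47 for Lrp1, -0.022 to 0.20 for Itgb5 and -0.039 to 0.73 for Stab1. The value of Gas6 there also changed sign, to 0.020, with library totals alone. No paired analysis was made, because each animal number belongs to a single mouse and the labels give no litter. Msr1 and Cd36 rested on at most 141 and 89 counts and also varied widely between mice. In WT mice the SD was 64.3% of the mean for Msr1 and 76.2% for Cd36. The part of depth in this spread was not tested.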
